A study of Mus musculus with 80 samples.

Results

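The leptin receptor gene Lepr and 7 related cytokine receptor genes (Ghr, Prlr, Il6st, Il6ra, Cntfr, Lifr and Osmr) were followed through every group of an RNA-seq series on mouse AgRP neurons. They were chosen by name, with earlier results of these data known, and make up 8 of the 23337 genes in the table. All 8 encode class I cytokine receptor chains, membrane proteins without an enzyme of their own. The receptor complexes they form signal through bound Janus kinases (JAKs) to STAT transcription factors. Leptin, released from fat, acts on LEPR in the arcuate nucleus of the hypothalamus, where AgRP neurons drive feeding and leptin is known to restrain them. GHR and PRLR bind growth hormone and prolactin as receptor pairs. IL6ST (gp130) is the shared signalling chain of the interleukin 6 family, which IL6RA, CNTFR, LIFR and OSMR join as the chains that recognise interleukin 6, ciliary neurotrophic factor, leukaemia inhibitory factor and oncostatin M.

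The 80 libraries fall into 20 groups in 4 experiments, each collected at stated hours of zeitgeber time (ZT, counted from lights on). In the first, NPY::hrGFP mice, whose Npy-expressing cells carry a green fluorescent protein, gave 33 libraries of cells sorted for that protein: ad libitum fed at ZT2 (6 libraries) and ZT14 (3), fasted for 24 h at ZT2 (7) and ZT14 (8), and refed for 1 h after the same fast at ZT2 (5) and ZT14 (4). In the second, AGRP-Cre;RiboTag mice, in which a Cre recombinase driven by Agrp tags ribosomes, gave 17 libraries of RNA bound to the tagged ribosomes: ad libitum at ZT2 (3) and ZT14 (4) and fasted for 24 h at ZT2 (5) and ZT14 (5). In the third, controls (WT;BMAL1fx) and mice with the clock gene Arntl, which encodes BMAL1, deleted through the same Cre (AGRP-Cre;BMAL1fx) received leptin or PBS at ZT2 or ZT14, with 3 libraries in each of 7 groups and 4 in control PBS ZT2. A last experiment compared these 2 genotypes at ZT5, with no treatment stated, with 2 control and 3 knockout libraries. Both genotypes of the leptin series and this experiment carry the floxed allele, and the labels of neither say how their cells were isolated or whether animals were pooled.

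Recovered depth was 5.93 to 34.0 M reads per library, with a median of 14.3 M, and 12672 to 18065 genes were above 0. The 8 AgRP neuron markers, Agrp and Npy among them, summed to 160700 to 2158000 outside RiboTag and to 26690 to 4262000 within it. Markers of some other cells were far higher in RiboTag. There 10 endothelial and mural genes summed to 1911 to 59970, against 9.64 to 363 in sorted cells. The sums of 5 fibroblast genes were 462 to 31690 and 0 to 491. Not every set followed: median sums of other hypothalamic neurons were 11960 in RiboTag and 14190 in sorted cells, and of POMC neurons 2872 and 2713. Sums of astrocytes and of tanycytes and ependyma were higher in RiboTag by median but overlapped. Arntl stood at 108 to 526.3 in the 12 knockouts and 223 to 1211 in the 13 controls of the leptin series, and at 470 to 540 in the ZT5 knockouts against 390 and 750 in the ZT5 controls, so at ZT5 it did not separate the genotypes. Hsd11b2, chosen after its values were seen, was 2092 to 3749 in the leptin-series knockouts and 0 to 19.7 in their controls, but 4628 in the library labelled ZT5 control 1 and 11.2 in the library labelled ZT5 knockout 3. Results that rest on these libraries are therefore named by label.

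The genes lie on 4 chromosomes in GRCm38, and 4 of them (Ghr, Prlr, Lifr and Osmr) share chromosome 15. Lepr is at chr4:101717404-101815352 on the plus strand, Ghr at chr15:3317760-3583492 and Osmr at chr15:6813577-6874969 on the minus strand, and Lifr at chr15:7090614-7197489 and Prlr at chr15:10177238-10349180 on the plus strand. Il6st is at chr13:112464070-112510086 (plus), Il6ra at chr3:89864059-89913196 (minus) and Cntfr at chr4:41657498-41697089 (minus). Their longest transcripts run from 1995 bases for Cntfr to 9900 for Prlr, and Cntfr has the highest GC content of the 8 at 59.9%. Prlr and Il6ra each share a short exonic stretch with another annotated gene, 203 and 242 bases, and neither of those genes is in the table.

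Promoter windows, 250 bases before to 50 after an annotated start, were searched on both strands for 2 motifs, the clock E-box CACGTG that BMAL1 dimers are known to bind, and TTCNNNGAA, the gap-spaced core that STAT dimers are known to bind. The windows are from RefSeq on GRCm38.p6, and all 8 genes have at least 1. The E-box letters were found in the Il6ra window alone and the STAT letters in the second Prlr window alone. Of 32851 windows of all genes, 7.15% hold the first and 8.3% the second, so single matches among these genes are a description and no site. The 3 windows are shown because Lepr is the gene the study's treatments address and the other 2 hold the matches, printed in capitals at positions -24 (Il6ra) and -110 (Prlr) from the start. The windows are chr4:101717157-101717456 (plus strand) for Lepr, chr3:89913147-89913446 (minus) for Il6ra and chr15:10223656-10223955 (plus) for Prlr.
Lepr: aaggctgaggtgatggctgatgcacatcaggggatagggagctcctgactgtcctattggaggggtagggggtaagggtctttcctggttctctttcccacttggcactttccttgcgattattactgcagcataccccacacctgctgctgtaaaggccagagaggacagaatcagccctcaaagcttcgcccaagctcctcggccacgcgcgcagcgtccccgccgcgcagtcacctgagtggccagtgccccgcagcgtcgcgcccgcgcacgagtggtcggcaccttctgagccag
Il6ra: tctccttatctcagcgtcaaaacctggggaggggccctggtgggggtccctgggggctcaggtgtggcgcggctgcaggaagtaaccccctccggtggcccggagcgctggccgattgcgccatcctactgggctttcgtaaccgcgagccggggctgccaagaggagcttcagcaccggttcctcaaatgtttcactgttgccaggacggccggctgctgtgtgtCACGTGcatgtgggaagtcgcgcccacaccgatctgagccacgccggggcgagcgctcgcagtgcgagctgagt
Prlr: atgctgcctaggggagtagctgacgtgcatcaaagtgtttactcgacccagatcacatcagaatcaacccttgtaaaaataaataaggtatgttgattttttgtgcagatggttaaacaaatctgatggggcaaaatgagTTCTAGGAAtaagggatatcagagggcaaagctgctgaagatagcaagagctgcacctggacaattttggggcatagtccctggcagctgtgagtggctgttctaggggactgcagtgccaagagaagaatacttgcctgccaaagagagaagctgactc

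Per kilobase of longest transcript, the growth hormone receptor was the most abundant of the 8 in sorted cells, with a median over the 33 libraries of 1544 normalised counts per kb. Lepr followed at 153.4, Il6st at 68.8 and Cntfr at 56.8. Lifr at 17.2 and Prlr at 11.7 were lower, Il6ra was at 0.198 and Osmr at 0. RiboTag gave another order: Ghr 645, Cntfr 308, Il6st 157, Lepr 50.02, Lifr 27.99, Prlr 13.6, Osmr 11.6 and Il6ra 8.00. Libraries of sorted cells thus held mRNA of the shared chain and of the CNTF and LIF receptors. Most held little or none of the interleukin 6 and oncostatin M receptors. Which of the cells in them carried it was not tested. Il6ra was under 10 normalised counts in 25 of 33 sorted libraries and 22 of 25 of the leptin series, and Osmr in 31 of 33 and 19 of 25.

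**Figure D1:**
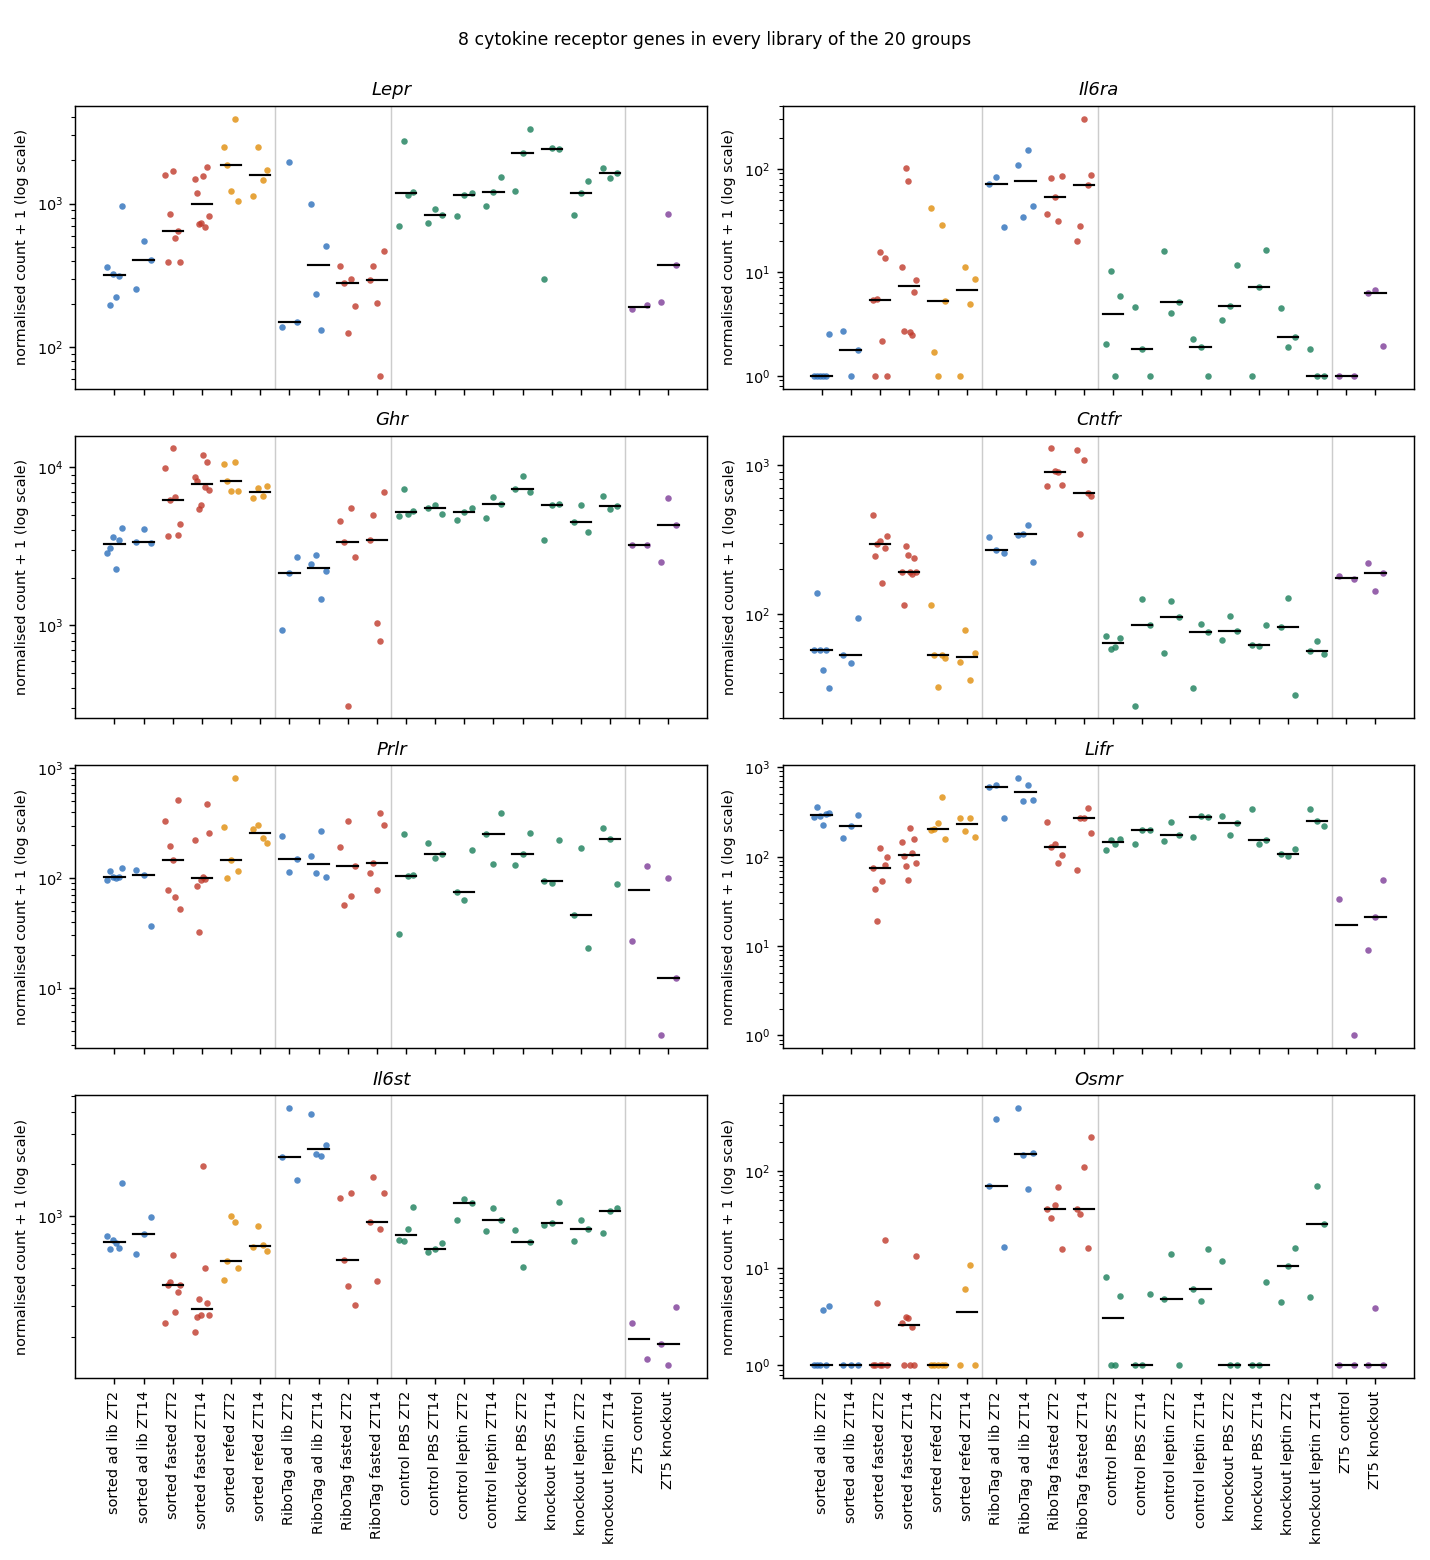
Normalised counts plus 1 (log axis) of the 8 receptor genes in each of 80 libraries (points), grouped by condition, with each group's median as a bar. Within each feeding experiment, Cntfr medians are higher and Lifr medians lower in the fasted groups (red) than in the ad libitum groups. The 3 highest Lepr medians are those of the knockout PBS groups and refed ZT2 (1855 to 2390). Outside RiboTag, group medians reach 6.42 for Il6ra and 27.7 for Osmr, and single libraries 101.7 and 69.2.

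Fasting for 24 h changed 5 of the 7 receptor genes tested in sorted cells at ZT2: Lepr, Ghr and Cntfr rose, and Il6st and Lifr fell. Of all genes tested, 37.5% were called in this comparison (limma, adjusted p under 0.05). At ZT14, where 18.5% of genes were called, 3 of 7 were called, Lepr, Ghr and Cntfr, all higher. Osmr was too low to be tested in either. The median log2 difference of the 7 was 0.94 at ZT2 and 1.15 at ZT14, against -0.02 and -0.04 over all genes tested. Fasted libraries also differed from ad libitum ones in markers: 8 of 11 genes of other hypothalamic neurons were higher at ZT2 (Nts by 7.66 on the log2 scale), their summed level ran from 13240 to 26470 against 3818 to 9622, and over both times 2 of the 11 had a median of 0 in fasted and 6 in ad libitum cells. The 10 markers of tanycytes and ependyma summed to 1123 to 9544 in fasted and 328.5 to 892 in ad libitum cells at ZT2, without overlap, and 2 of them were called higher. Of 11 astrocyte markers 3 were called higher, and their sums were 2951 to 39820 and 3312 to 6024; over both times 0 of the 11 had a median of 0 in fasted and 6 in ad libitum cells. The part of these other cells in the receptor differences was not tested. Here and below, fewer cells of a type and less RNA per cell cannot be told apart.

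Lepr in ad libitum sorted cells ran from 197 through a median of 317 to 967 at ZT2 and was 253, 550 and 403 at ZT14. Fasted libraries ran from 392.04 through 642 to 1675 at ZT2 and from 685 through 999.97 to 1797 at ZT14. The ZT14 groups did not overlap, and at ZT2 the overlap came from the ad libitum library at 967, replicate 6, above 5 of the 7 fasted ones. The log2 difference was 1.14 ± 0.37 (SE; adjusted p = 0.0137) at ZT2 and 1.45 ± 0.44 (adjusted p = 0.0202) at ZT14. The first call did not hold in edgeR's quasi-likelihood test (adjusted p = 0.0545). The second did not hold when either of 2 ad libitum ZT14 libraries was dropped, replicate 1 (adjusted p = 0.143) or replicate 3 (adjusted p = 0.0625).

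After 1 h of refeeding, Lepr was at 2476, 1855, 1223, 3915 and 1042 at ZT2 and at 1137, 2473, 1451 and 1715 at ZT14. Every refed library was above every ad libitum library of its time. Against ad libitum, the ZT2 difference was 2.46 ± 0.40 (adjusted p = 6.98e-05) and held in all 21 alternatives, and the ZT14 difference was 2.08 ± 0.50 (adjusted p = 0.0524). Against fasted, Lepr was higher at ZT2 by 1.32 ± 0.39 (adjusted p = 0.0114), with 3 of 5 refed libraries above all 7 fasted, and at ZT14 the difference was 0.63 ± 0.40 (adjusted p = 0.357). That ZT2 call was lost without refed ZT2 replicate 4, the library at 3915 (adjusted p = 0.0631), with the GC and length correction (0.93, adjusted p = 0.0785), and without the libraries that stand apart (adjusted p = 0.0968). The refed comparisons share their ad libitum and fasted libraries with the fasting comparisons. Controls of the leptin series given PBS, a separate experiment whose feeding state the labels do not state, had Lepr at 700.5 to 2733 at ZT2, beside 197 to 967 in ad libitum sorted cells of that time.

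Leprot, which is transcribed from a neighbouring start upstream of Lepr (chr4:101647718-101659364) and whose product is known to hold LEPR inside the cell, rose with fasting too. It ran from 244 through 414 to 564 in ad libitum and from 494 through 553 to 913 in fasted cells at ZT2 (log2 difference 0.64 ± 0.19, adjusted p = 0.00928). At ZT14 the values were 464 to 608 ad libitum and 831 to 1223 fasted, without overlap, with a difference of 0.91 ± 0.24 (adjusted p = 0.00629). Refed against ad libitum at ZT2 gave 0.93 ± 0.21 (adjusted p = 0.00245).

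Ghr, the receptor of growth hormone, rose at both times. Its ad libitum values were 2261 to 4104 at ZT2, with a median of 3268, and 3352, 4085 and 3318 at ZT14. Fasted values ran from 3652 through 6240 to 13151 at ZT2 and from 5466 through 7879 to 11892 at ZT14, where every fasted library was above every ad libitum one. The log2 differences were 0.94 ± 0.23 (adjusted p = 0.00155) and 1.15 ± 0.28 (adjusted p = 0.00372), called in all 23 and 21 alternatives. Refed cells stayed high, at 7073 to 10814 at ZT2 and 6409 to 7644 at ZT14. Refed ZT2 cells exceeded ad libitum ones by 1.43 ± 0.25 (adjusted p = 0.000193) and differed from fasted ones by 0.49 ± 0.24 (adjusted p = 0.146). At ZT14 refed against ad libitum was 0.97 ± 0.32 (adjusted p = 0.288), with no overlap.

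Prlr was low and variable. It ran from 95.8 to 123 in ad libitum cells at ZT2 and from 51.3 through 146 to 512 in fasted ones, 4 of them above and 3 below all ad libitum libraries, with a difference of 0.44 ± 0.52 (adjusted p = 0.535; 95% interval -0.62 to 1.51). With the correction for GC content and transcript length it was 1.54 (adjusted p = 0.0219). At ZT14 the 4 refed libraries, 282, 302, 232 and 210, were all above the ad libitum values of 118, 107 and 35.5, with a difference of 1.71 ± 0.72 (adjusted p = 0.597).

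The shared chain Il6st went the other way. In ad libitum cells it ran from 648 through 712 to 1558 at ZT2 and was 602, 783 and 982 at ZT14. Fasted cells had 238 through 399 to 597 at ZT2, all below every ad libitum library, a difference of -1.11 ± 0.34 (adjusted p = 0.00913). With the GC and length correction it was -0.22 (adjusted p = 0.503); over all genes, the ZT2 fasting difference correlated with transcript length at a Spearman rho of -0.35, across 13415 genes that are not independent replicates. At ZT14, 7 of 8 fasted libraries lay at 211 to 498 and below all ad libitum ones, and replicate 5 was at 1943. The difference was -1.05 ± 0.41 (adjusted p = 0.0708) with that library and -1.38 (adjusted p = 0.000717) without it. Refed values were 425 to 1008 at ZT2 and 627 to 872 at ZT14, with differences from ad libitum of -0.31 ± 0.37 and -0.13 ± 0.46 (adjusted p = 0.603 and 1).

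Cntfr, the CNTF-binding chain, which is anchored in the membrane by a lipid, showed the largest rise of the 7 at ZT2. Ad libitum cells had 30.8 through 56.2 to 138 at ZT2 and 52.2, 46.0 and 93.3 at ZT14. Fasted cells had 161 through 294 to 462 at ZT2 and 114 through 190 to 283 at ZT14, above every ad libitum library of the same time. The log2 differences were 2.32 ± 0.32 (adjusted p = 8.31e-07) and 1.69 ± 0.39 (adjusted p = 0.00237). An hour of refeeding brought values of 113, 52.5, 31.6, 52.3 and 49.6 at ZT2 and 46.8, 77.3, 35.05 and 53.6 at ZT14. These lay below every fasted library, by -2.36 ± 0.34 (adjusted p = 2.94e-06) and -1.94 ± 0.35 (adjusted p = 0.000184), and within 0.25 of ad libitum on the log2 scale (-0.04 ± 0.35 and -0.25 ± 0.44). All 4 of these fasting and refeeding calls held in every alternative run.

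Lifr, the signal-transducing partner of gp130 for LIF and CNTF, moved opposite to Cntfr. Ad libitum values were 224 through 292 to 359 at ZT2, and fasted values 17.9 through 73.4 to 124, all lower. The difference was -2.24 ± 0.34 (adjusted p = 3.47e-06) and stayed between -2.41 and -1.19 in the 23 alternatives, the smallest with the GC and length correction. At ZT14 the values were 162, 222 and 288.5 ad libitum and 54.4 through 105 to 210 fasted, 7 of 8 below all ad libitum (-1.01 ± 0.41, adjusted p = 0.0858). Refed cells had 155 to 461 at ZT2 and 166 to 272 at ZT14. Against fasted cells this was 1.93 ± 0.36 (adjusted p = 0.000127) at ZT2, without overlap, and 1.02 ± 0.37 (adjusted p = 0.072) at ZT14. The longest transcripts of Cntfr and Lifr have 1995 and 9655 bases. Over all genes, the ZT2 difference correlated with transcript length at a Spearman rho of -0.35 on fasting and 0.339 on refeeding.

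Without fasted ZT14 replicate 5, in which Il6st and Lifr were the highest of their group, 5 of 7 genes were called at ZT14 instead of 3, Lifr among them (adjusted p = 0.0381). The difference between the fasting effects at the 2 times was called for 0 of 7 receptor genes and for 0% of all genes in limma, with 647 genes at an unadjusted p under 0.05 and 0 calls with edgeR. Of the 7, Lifr alone had an unadjusted p under 0.05, with a smaller fall at ZT14 by 1.23 ± 0.54.

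Il6ra stood at 0 in 5 of 6 ad libitum ZT2 libraries and at most at 1.71 at ZT14. Fasted values were 0 to 14.8 at ZT2 and 1.46 to 102 at ZT14, where replicates 3 and 4 had 102 and 74.3 and the other 6 at most 10.2. Those replicates had summed astrocyte markers of 37070 and 25640, against 2278 to 5835 in the other 6, and none of the 11 astrocyte markers had a median of 0 in fasted sorted cells. The part of those cells in the Il6ra values was not tested. The log2 differences, 1.75 ± 0.94 and 2.53 ± 1.14, did not pass (adjusted p = 0.143 and 0.119). Osmr was 0 in 22 of 33 sorted libraries, and its highest value, 18.7, was in fasted ZT2 replicate 6, where the summed astrocyte markers were 39820.

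Over all receptor genes, refed against fasted cells gave 3 calls of 7 at ZT2 (Lepr and Lifr higher, Cntfr lower), where 21.8% of all genes were called, and 1 of 7 at ZT14 (Cntfr), where 11.7% were. Refed against ad libitum gave 2 of 7 at ZT2 (Lepr and Ghr), where 17.7% of all genes were called. At ZT14 limma called 0 of 7 and 0.375% of all genes, with Lepr, Ghr and Prlr at an unadjusted p under 0.05, and edgeR also called 0. At ZT2, 1 h after food, Cntfr and Lifr were thus near their ad libitum levels, and Lepr and Ghr were above them. Fasted libraries also had a high level of the gene Alyref, given below, that refed and ad libitum ones lacked. The part of what sets it in these differences was not tested.

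**Figure D2:**
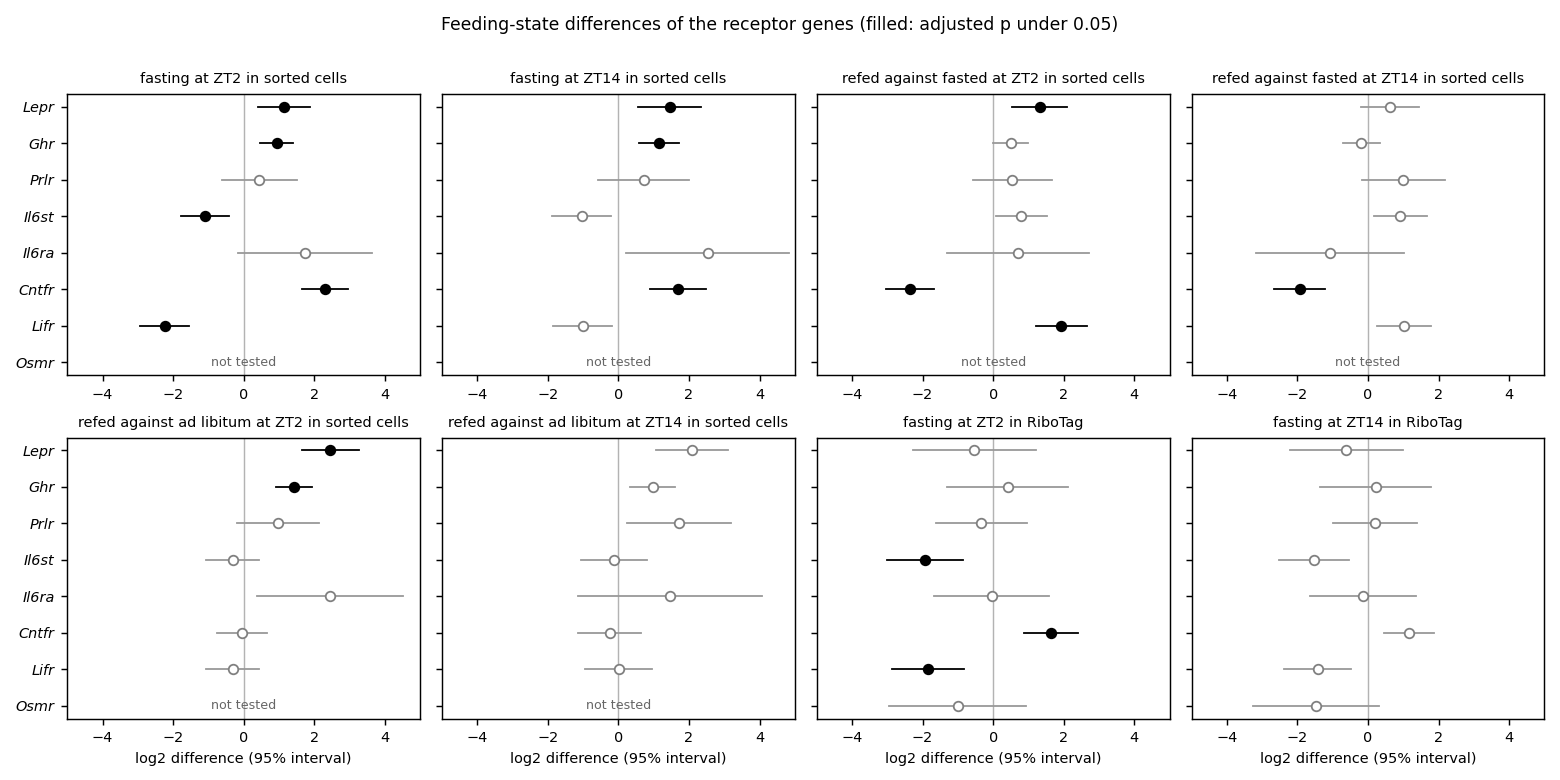
Log2 differences of 8 receptor genes in 8 feeding comparisons, with 95% intervals (bars); filled points passed an adjusted p of 0.05 in limma. At ZT2 in sorted cells Cntfr and Lifr mirror each other, at 2.32 and -2.24 on fasting and -2.36 and 1.93 on refeeding. At ZT14 the Lifr differences, -1.01 on fasting and 1.02 on refeeding, did not pass.

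Pooling both times, a comparison added after the data were seen, fasting in sorted cells was called for 6 of 8 receptor genes, and for 38% of all genes. Osmr, too low for the fit of sorted cells alone, was tested here only through the RiboTag libraries of the same fit, and was not called. Lepr (1.29 ± 0.40), Ghr (1.05 ± 0.36), Cntfr (2.00 ± 0.23) and Il6ra (2.14 ± 0.61) rose, and Il6st (-1.08 ± 0.30) and Lifr (-1.63 ± 0.29) fell. The Il6ra call was lost with a pseudocount of 10 (adjusted p = 0.0942), and the Il6st call with the GC and length correction (adjusted p = 0.178). The same pooling in RiboTag called 3 of 8 genes, with 27.7% of all genes called: Cntfr (1.41 ± 0.26) rose, and Il6st (-1.72 ± 0.34) and Lifr (-1.64 ± 0.33) fell. With the GC and length correction the Lifr difference in RiboTag was -0.84 (adjusted p = 0.0502). Ghr was not called in RiboTag (0.32, adjusted p = 0.604). It was called with library weights (0.96, adjusted p = 0.00692) and without the libraries that stand apart (0.93, adjusted p = 0.0362). Its RiboTag medians were 2150 (ZT2) and 2319 (ZT14) ad libitum, and 3372 and 3493 fasted.

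Per library, RiboTag Cntfr was 325, 268 and 257 ad libitum at ZT2 and 719, 1285, 900.2, 895 and 729 fasted. At ZT14 it was 339, 343, 395 and 221 ad libitum and 1256, 342, 1072, 650.2 and 614 fasted. Every fasted ZT2 library was above every ad libitum one, and at ZT14 4 of 5 were. The differences were 1.65 ± 0.36 (adjusted p = 0.0103) and 1.17 ± 0.33 (adjusted p = 0.0502).

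Ribosome-bound Lifr fell without overlap at ZT2, from 596, 633 and 271 ad libitum to 245, 127, 137, 84.1 and 102 fasted (-1.84 ± 0.49, adjusted p = 0.0276). At ZT14 it was 422 to 753 ad libitum and 69.3 to 349 fasted, again without overlap (-1.43 ± 0.45, adjusted p = 0.0748). Il6st likewise was 2199, 4231 and 1631 against 1283, 558, 395, 1361 and 304 at ZT2 (-1.92 ± 0.51, adjusted p = 0.0286). At ZT14 its values of 2241 to 3943 ad libitum lay above all fasted values, 417 to 1676 (-1.52 ± 0.47, adjusted p = 0.0706). The ZT2 calls of Il6st and Lifr were lost in 7 and 8 of 18 alternatives. With the GC and length correction they were -0.98 (adjusted p = 0.0966) and -0.85 (adjusted p = 0.353). Over all genes, the RiboTag fasting difference at ZT2 correlated with transcript length at a Spearman rho of -0.485. Without ad libitum ZT2 replicate 2 limma called 0 of the 8 at that time. In all, limma called 3 of 8 at ZT2, where 7.89% of all genes were called, and 0 of 8 at ZT14, where 5.29% were; at ZT14 3 of the 8 had an unadjusted p under 0.05 and edgeR called 1, Cntfr. The difference between these 2 effects was called for 0 of 8 genes and 0% of all genes, with 252 genes and none of the 8 at an unadjusted p under 0.05 in limma, and 0 calls in edgeR.

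Lepr did not follow its sorted-cell pattern in RiboTag. It was 138, 1956 and 149 ad libitum at ZT2 and 125 to 368 fasted, and 994, 234, 131 and 509 ad libitum at ZT14 and 62.3 to 465.98 fasted. The differences were -0.54 ± 0.83 and -0.62 ± 0.76, with 95% intervals of -2.29 to 1.204 and -2.22 to 0.98. The 3 ad libitum libraries with the highest Lepr were also those with the highest fibroblast marker sums, 31690, 25560 and 8493, against 655 to 3013 in the other 4. All 5 fibroblast markers were above 0 in every RiboTag library, and the part of those cells in the Lepr values was not tested.

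The fasting difference of Lepr, RiboTag minus sorted over both times, was -1.87 ± 0.61 (adjusted p = 0.0334), the only one of 8 called, where 14.2% of all genes were. It was -1.25 (adjusted p = 0.132) without RiboTag ad libitum ZT2 replicate 2, the library at 1956, and 6 of 50 alternatives lost the call. For the others the difference was not called, among them Lifr at -0.01 ± 0.44, with a 95% interval of -0.89 to 0.87, and Cntfr at -0.60 ± 0.35, with -1.30 to 0.10. This comparison was also added after the data were seen.

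**Figure D3:**
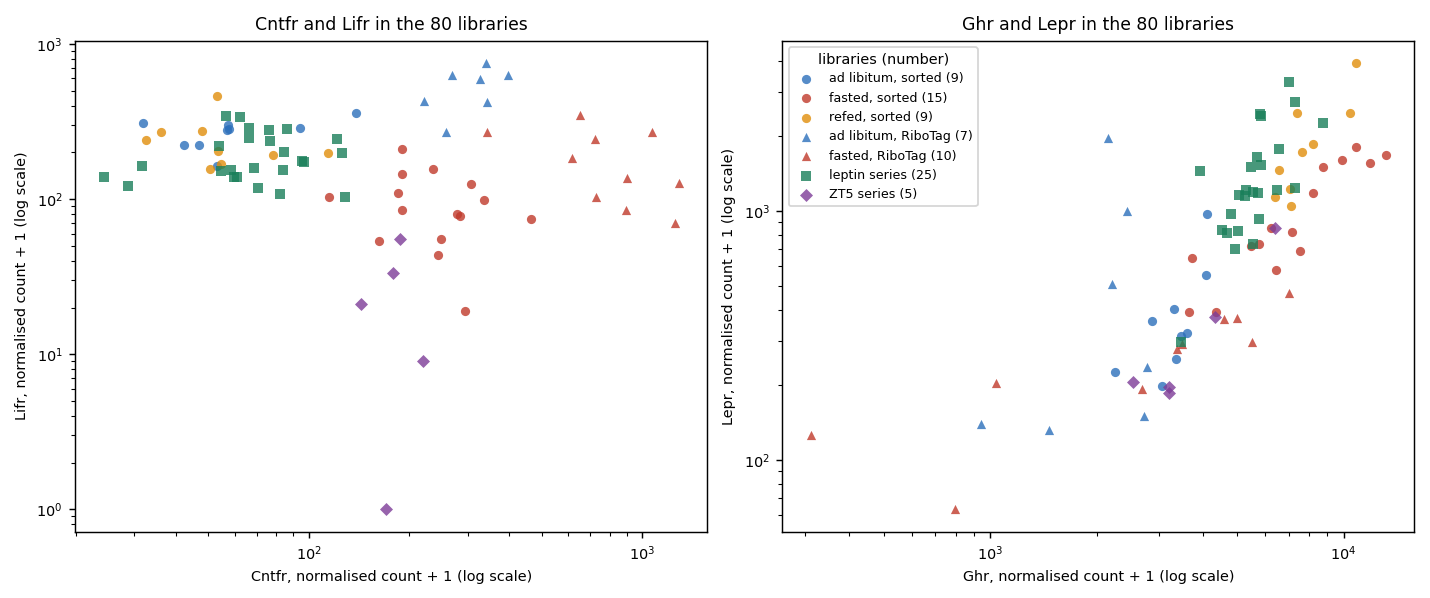
Normalised counts plus 1 (log axes) of Cntfr against Lifr (left) and of Ghr against Lepr (right) in the 80 libraries, with symbols by experiment and feeding state. On the left, sorted fasted (Cntfr 114 to 462) and ZT5 libraries (142 to 219) lie mostly to the lower right of the other sorted and leptin-series libraries. The fasted ones overlap those on both axes. On the right, ad libitum sorted libraries (Ghr 2261 to 4104) lie to the lower left of the refed ones (Ghr 6409 to 10814).

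In ad libitum mice, RiboTag libraries had more mRNA than sorted ones for 6 of 8 receptor genes and less for 1, in a comparison that called 69.8% of all genes. Osmr was 15.6 to 440.5 against 0 to 3.08 (log2 difference 6.43 ± 0.62) and Il6ra 26.5 to 149 against 0 to 1.71 (5.46 ± 0.50), neither overlapping. Cntfr (2.33 ± 0.28), Il6st (1.72 ± 0.22), Lifr (1.00 ± 0.21) and Prlr (0.76 ± 0.29) were higher, and Ghr was lower (-0.78 ± 0.20), though at 0.00 (adjusted p = 0.999) with the GC and length correction. The Prlr call was lost in 5 of 25 alternatives, among them edgeR (adjusted p = 0.064), library weights (adjusted p = 0.0691) and leaving out RiboTag ad libitum ZT14 replicate 3 (0.62, adjusted p = 0.0587), ZT2 replicate 1 (0.61, adjusted p = 0.079) or sorted ad libitum ZT14 replicate 3 (0.49, adjusted p = 0.104). Lepr did not differ beyond its spread (-0.05 ± 0.52, 95% interval -1.14 to 1.04). The preparations also differ in the mouse line and in the cell markers given above, and these cannot be told apart from the preparation itself.

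**Figure D4:**
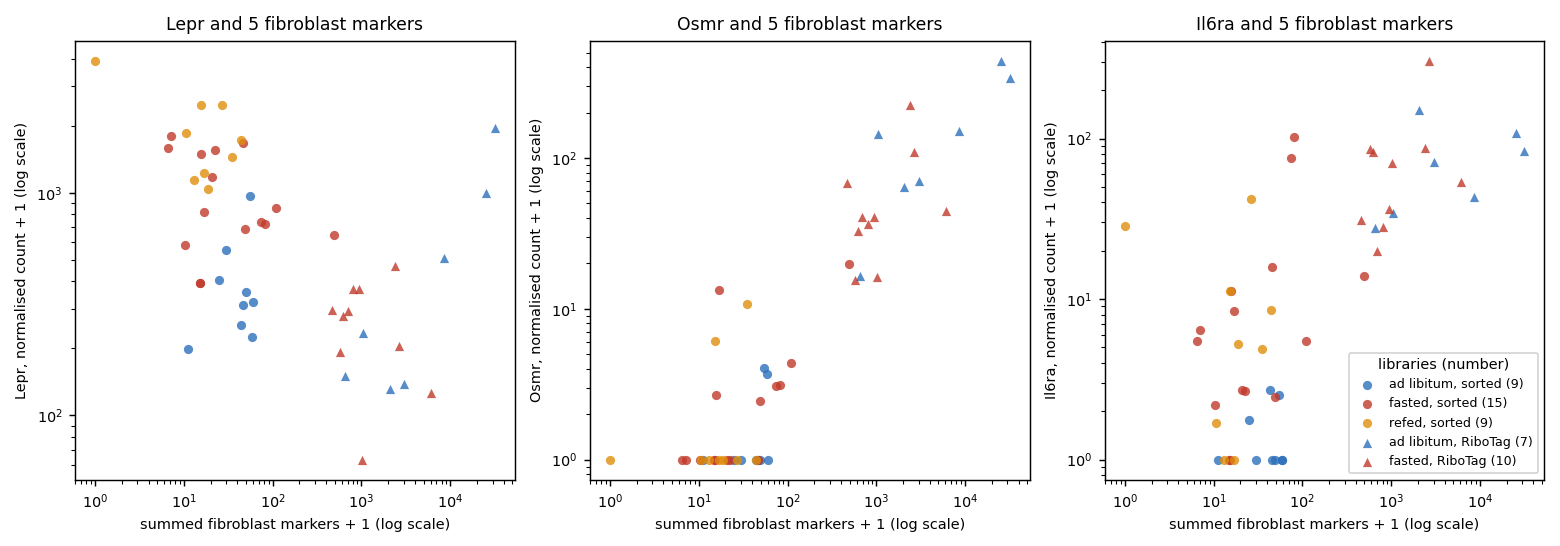
Lepr, Osmr and Il6ra (normalised counts plus 1, log axes) against the summed level of 5 fibroblast markers plus 1 in the sorted (circles) and RiboTag (triangles) libraries, coloured by feeding state. RiboTag libraries with marker sums of 8493 or more and ad libitum food have Lepr of 509 to 1956 and Osmr of 151 to 440.5.

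Cntfr, Lifr and Il6st had fasted-like levels in libraries not labelled as fasted. In the 5 ZT5 libraries Cntfr was 142 to 219, in the range of fasted sorted cells (114 to 462) and above all 25 leptin-series libraries (23.3 to 128). Lifr was 0 to 54.3 at ZT5, below all of the leptin series (102 to 345), and Il6st was 135 to 296, below all of it too (509 to 1254). All 25 fasted and 5 ZT5 libraries also shared a level of Alyref, an mRNA export gene chosen after its values were seen, of 545 to 2756, against 12.3 to 81.8 in the other 50. Lepr and Ghr did not follow this split: refed cells, which had the low Alyref level, had the most Lepr of the sorted groups. What sets the shared level was not tested. Every fasted library had the high level and every ad libitum one the low level. It therefore cannot be told apart from fasting for any of the receptor genes, Lepr and Ghr included.

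Leptin given to controls or knockouts did not change any receptor gene at the threshold. Limma called 0 of 8 in controls at ZT2 and at ZT14, where 0.0215% and 0% of all genes were called, and in knockouts at ZT2 and at ZT14, where 0.423% and 0.0861% were. At an unadjusted p under 0.05 there were 0, 1, 3 and 1 of the 8, and edgeR called 0 in each. Over both genotypes and times, 0 of 8 were called among 0.925% of all genes, 2 (Il6st and Osmr) having an unadjusted p under 0.05 and edgeR calling 0.

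Lepr itself was 816, 1149 and 1192 after leptin and 700.5, 2733, 1151 and 1209 after PBS in controls at ZT2, and 967, 1207 and 1521 against 731, 923 and 829.2 at ZT14. Over all 12 leptin and 13 PBS libraries the difference was -0.05 ± 0.27, with a 95% interval of -0.60 to 0.51. The ZT14 groups of controls did not overlap (0.55 ± 0.55, adjusted p = 1), and neither sign nor size held at ZT2 (-0.30 ± 0.51).

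Osmr showed the largest difference of the 8, at low levels: 0 to 69.2 in the 12 leptin libraries, 1 of them at 0, and 0 to 10.8 in the 13 PBS libraries, 8 of them at 0. The log2 difference was 2.07 ± 0.61 (adjusted p = 0.162). Il6st was 714 to 1254 after leptin and 509 to 1216 after PBS, a difference of 0.31 ± 0.11 (adjusted p = 0.308). With library weights both were called (adjusted p = 0.0243 and 0.0401).

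In knockouts at ZT2, leptin came with lower Lifr (106, 102 and 120 against 287, 174 and 235) and lower Ghr (4533, 5738 and 3915 against 7283, 8769 and 7015), neither overlapping. The differences were -1.05 ± 0.32 and -0.71 ± 0.20 (adjusted p = 0.194 and 0.156). For Lifr in controls at ZT2 the difference was 0.40 ± 0.30, and the difference between genotypes was -1.45 ± 0.44 (adjusted p = 1.00). The difference of the leptin effects between genotypes was called for 0 of 8 genes and 0% of all genes at each time, with 472 genes at ZT2 and 371 at ZT14 at an unadjusted p under 0.05, 2 (Ghr and Lifr) and 0 of the 8 among them, and edgeR called 0.

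BMAL1 deletion gave no called receptor gene. Limma called 0 of 8 after PBS at ZT2 and ZT14 (0.0215% and 0.00717% of all genes), after leptin at ZT2 and ZT14 (0.00717% and 0.0215%) and over all 4 (0.0789%), with 2, 1, 1, 0 and 0 of the 8 at an unadjusted p under 0.05, and edgeR called 0 throughout. Lepr after PBS was 1227, 2239 and 3298 in ZT2 knockouts and 296, 2439 and 2390 in ZT14 knockouts, with 1 library far below the other 5. Over both treatments and times the knockout difference of Lepr was 0.45 ± 0.27 (adjusted p = 0.74; 95% interval -0.11 to 1.01). Il6st at ZT14 after PBS was 886, 914 and 1216 in knockouts and 620, 645 and 700 in controls, without overlap (0.60 ± 0.22, adjusted p = 0.473). At ZT5, Lepr was 205, 852 and 372 in the libraries labelled knockout and 184.5 and 196 in those labelled control, a difference of 1.08 ± 0.53 (adjusted p = 0.587). There 0 of 6 receptor genes were called, with 0 at an unadjusted p under 0.05, and 0% of all genes, with 1157 at an unadjusted p under 0.05, and edgeR called 0. Without the libraries labelled control 1 and knockout 3, no receptor gene was called either, the lone control left being assumed to vary like the knockouts.

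Time of day changed none of the receptor genes at the threshold. ZT14 against ZT2 in sorted cells gave 0 of 7 in ad libitum, fasted and refed mice, where 0%, 0.281% and 0.0268% of all genes were called by limma. Of the 7, 0, 1 (Lifr in fasted cells, 0.83 ± 0.32) and 0 had an unadjusted p under 0.05, and edgeR called 0 in each. Among all genes in ad libitum cells, 413 had an unadjusted p under 0.05. For Lepr in ad libitum sorted cells the difference was 0.17 ± 0.46, with a 95% interval of -0.77 to 1.12.

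In RiboTag, 0 of 8 were called in ad libitum and 0 of 8 in fasted mice, with 0% and 0% of all genes, none of the 8 at an unadjusted p under 0.05, 92 and 1381 genes at that level, and 0 calls with edgeR. In the leptin series, ZT14 against ZT2 called 0 of 8 in controls after PBS and after leptin (0.00717% and 0% of all genes) and in knockouts after PBS and after leptin (0% and 0.043%). There 0, 0, 2 and 2 of the 8 had an unadjusted p under 0.05, and edgeR called 0 in each. The smallest of these p-values was for Lifr in knockouts after leptin, 345, 247.5 and 220.2 at ZT14 against 106, 102 and 120 at ZT2 (1.28 ± 0.32, adjusted p = 0.184).

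Ordered by group median, Lepr ran from 2390 in knockout PBS ZT14 and 2239 in knockout PBS ZT2, through 1855 and 1583 in refed ZT2 and ZT14, 999.97 and 642 in fasted ZT14 and ZT2, and 403 and 317 in ad libitum ZT14 and ZT2, to 149 in RiboTag ad libitum ZT2. Each of the 19 neighbouring pairs in this order overlapped. The same held for Prlr, Il6ra and Osmr, and Il6st, Ghr, Cntfr and Lifr each had 1 neighbouring pair that did not. For Cntfr that pair was ZT5 control, with a median of 174, and control leptin ZT2, with 94.3. By median, the fasted, ZT5 and RiboTag groups lay above this step and the remaining groups below. Single libraries of the 2 sides overlapped.

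Across the 20 group means, each centred within its experiment, Lepr correlated with Ghr (Pearson r = 0.819) and Il6st with Lifr (0.756), while Cntfr ran against Il6st (-0.802) and Lifr (-0.777). These are descriptions, since the groups share libraries' depth, preparation and feeding state. Among 10476 genes the closest to Lepr were Trim9 (r = 0.953), Ahcy (0.92), Etv5 (0.918), Ptk2b (0.912) and Elmo1 (0.895). Closest to Ghr were Rbbp7 (0.948), Cdkn1a and Gpr3, to Prlr Plce1 (0.803), Cpsf3 and Aadat, and to Il6st Anapc1 (0.949), Pde4dip and Vprbp. Closest to Cntfr were Pomgnt1 (0.96), Aes and Arl8a, and to Lifr Pcdh9 (0.939), Amotl1 and Utp20.

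Of 13 ligand genes, 11 had a median of 0 in sorted cells, and 1 of the 2 tested changed with fasting there at each time, where 37.5% (ZT2) and 18.5% (ZT14) of all genes were called. Ctf1, cardiotrophin 1, which signals through LIFR and gp130, was 0 to 10.7 in ad libitum and 8.64 to 210 in fasted sorted cells, and 0 to 2.92 in refed ones. It rose by 3.76 ± 0.72 (adjusted p = 8.96e-05) at ZT2 and 4.76 ± 0.87 (adjusted p = 0.00019) at ZT14, and in RiboTag by 3.30 ± 0.82 (adjusted p = 0.0203) at ZT2 and 4.46 ± 0.75 (adjusted p = 0.000872) at ZT14. Its highest sorted values, 210, 194, 153 and 141, were in the 4 fasted libraries with the highest astrocyte markers, and the other 11 fasted libraries were at 8.64 to 73.4. The part of astrocytes in these values was not tested. Ctf1 was 0 to 46.8 at ZT5 and 0 to 6.58 in the leptin series.

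Of 25 other class I cytokine receptor genes, 14 were tested in sorted cells, and at ZT2 5 rose with fasting and 1 fell, where 37.5% of all genes were called. Il2rg, the shared chain of the interleukin 2 family, rose by 2.60 ± 0.32 (adjusted p = 1.06e-07), and Il11ra1, which pairs with gp130, by 1.54 ± 0.27 (adjusted p = 2.50e-05). At ZT14, where 18.5% of all genes were called, 2 of 14 rose, these same 2. Il2rg was also higher in refed than in ad libitum cells at ZT2, by 2.81 ± 0.35 (adjusted p = 1.21e-06).

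Downstream of the receptors, none of 4 Janus kinase genes was called with fasting in sorted cells at either time in limma, where 37.5% (ZT2) and 18.5% (ZT14) of all genes were; Jak2, the kinase of the leptin receptor, was at -0.15 ± 0.41 and 0.34 ± 0.50. In RiboTag, Jak2 rose with fasting at ZT14, by 2.15 ± 0.35 (adjusted p = 0.000601), and was at 0.77 ± 0.38 (adjusted p = 0.196) at ZT2. Among the STAT genes in sorted cells, Stat5b fell with fasting at ZT14 (-1.45 ± 0.48, adjusted p = 0.0319), where 18.5% of all genes were called. Stat3, the main STAT of leptin signalling, was at 0.05 ± 0.25 at ZT2 and 0.31 ± 0.30 at ZT14 in these cells. Of 15 adaptor genes 3 rose and 6 fell at ZT2, beside the 37.5% of all genes called, Sos1, which activates Ras, by -2.21 ± 0.28 (adjusted p = 1.33e-07) and Irs4 by -1.27 ± 0.29 (adjusted p = 0.000651).

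Among the 15 feedback inhibitors tested, 1 was higher and 2 were lower with fasting at ZT2, a smaller share than the 37.5% of all genes called. Refed against ad libitum cells at that time had 4 higher and 0 lower, where 17.7% of all genes were called. Socs2, a suppressor of growth hormone receptor signalling, rose in both, by 1.19 ± 0.28 (adjusted p = 0.00113) and 1.54 ± 0.31 (adjusted p = 0.000791). Cish, a related suppressor induced through STAT5, was higher in refed than in ad libitum cells at ZT2 by 2.48 ± 0.55 (adjusted p = 0.00224). Over both genotypes and times leptin raised 3 of 14 tested, where 0.925% of all genes were called: Socs2 (1.21 ± 0.09, adjusted p = 2.8e-08), Cish (1.29 ± 0.21, adjusted p = 0.00112) and Ptpn1 (0.67 ± 0.16, adjusted p = 0.038), the gene of the phosphatase PTP1B that acts on JAK2. Socs2 was 1331 to 1874 in the 12 leptin libraries and 394 to 1095 in the 13 PBS libraries, with no overlap. In the same comparison limma called none of the 8 receptor genes.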

How the data were processed

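RNA-seq was measured in 80 libraries, amplified with SMART-seq v4 per the labels' protocols. The authors deposited 1 table of normalised counts (here a signal: counts divided by a factor per library). The submitters' processing notes name the mm10 build and, as tools, featureCounts, STAR 2.5.1, R 3.5.1, DESeq2 and DESeq; their settings are not given in the sources used here. In 79 libraries the deposited values were whole multiples of 1 step, which gave back the read counts (tolerance 0.1); ad libitum sorted ZT2 replicate 4 was not, and was left out of the count test.

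Differences were tested with limma 3.58.1 (trend, R 4.3.3) on log2(value + 1), so folds of low genes are understated, with all groups of an experiment in 1 fit, genes at 10 or more in at least as many libraries as the smallest group, and Benjamini-Hochberg adjustment over all genes tested (threshold 0.05). Alternatives were a pseudocount of 10, other filters, TMM rescaling, a replicate block, library weights, a GC and length correction, edgeR 4.0.16's quasi-likelihood test on recovered reads, fits of only the groups compared, and leaving out each replicate. With the values already known, 3 of the 36 comparisons and an alternative without 11 libraries that stand apart were added. The procedures were tested on simulated data.

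The 8 genes and all lists were chosen with earlier results of these data known. The genes named beyond them were up to 3 calls of each list with the smallest p, and for likeness those with the highest Pearson correlation over the 20 group means. The labels do not say that replicates are separate mice, so p-values measure only the spread between libraries. One gene of the lists is not reported here.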

Additional observations from a re-analysis of the deposited data

Results flagged for a closer look

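Of 71 sets of values examined, each 1 gene in 1 group of 4 to 8 libraries, 5 held a library further from the rest than Dixon's critical value. Chance gives about 1 in 20 such sets where values spread normally, which sets near 0 do not. Il6st was 1558 in ad libitum sorted ZT2 replicate 6, where the other 5 were 648 to 767. Il6st was 1943 in fasted sorted ZT14 replicate 5, where the other 7 were 211 to 498. Ghr was 310.7 in fasted RiboTag ZT2 replicate 3, where the other 4 were 2695 to 5492. Il6ra was 1.54 in ad libitum sorted ZT2 replicate 6, where the other 5 were at 0. That value is 1 read, and any value above 0 would have been flagged there. Osmr was 12.3 in fasted sorted ZT14 replicate 8, where the other 7 were at 0 to 2.14. The fasting effect on Lepr differed between RiboTag and sorted cells in a test of the difference itself, by -1.87 on the log2 scale.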

How the results depend on the processing

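Over the alternatives, 834 single-gene values kept their call, 37 lost it and 1 reversed: Ghr in RiboTag against sorted cells, at 0.00042 with the GC and length correction. With library weights the number of receptor genes called became 6 for fasting at ZT14 in sorted cells, 3 for refed against fasted and 3 for refed against ad libitum at ZT14, 3 for RiboTag fasting at ZT14, and 2 for the difference between RiboTag and sorted cells. In the leptin series they gave 1 for leptin in knockouts at ZT2 and 1 for its difference from controls, 2 for leptin over all groups, 1 and 1 for knockouts at ZT2 after PBS and after leptin, and 2 and 1 for time after leptin in controls and knockouts. Refed against ad libitum at ZT14 gave 1 with the stricter filter, TMM or the GC and length correction and 3 with only the groups compared. RiboTag fasting at ZT2 gave 1 with the GC and length correction or only the groups compared. RiboTag fasting at ZT14 gave 1 with a pseudocount of 10, the stricter filter, TMM, edgeR, only the groups compared, or without the libraries that stand apart. The difference between RiboTag and sorted cells gave 3 with edgeR and 0 without the libraries that stand apart. The cause was not tested.

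Leaving out 1 library at a time gave 0 to 3 calls for RiboTag fasting at ZT2, 0 to 2 at ZT14, 2 to 5 for fasting at ZT14 in sorted cells, 1 to 3 for refed against fasted at ZT14 and 2 to 4 at ZT2, and 0 to 1 for the difference between RiboTag and sorted cells. Not every same-numbered pair of libraries deviated together: 12 of 65 in sorted cells, 7 of 22 in RiboTag, 22 of 78 in the leptin series and 0 of 2 at ZT5 had a correlation over 0.1 (medians 0.00123, -0.032, 0.0321 and -0.0216). The numbers were therefore not taken as a pairing. With the replicate block the calls summed over 36 comparisons were 33 instead of 34. Outside RiboTag, 52 of 63 values of Il6ra and 55 of 63 of Osmr were under 10, so their differences there rest on few reads.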

Other observations

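Messenger RNA of the pituitary hormones that GHR and PRLR bind was high in 2 libraries. Gh was 130560 and 125430, and Prl 17799 and 20339, in fasted RiboTag ZT2 replicates 2 and 4. The next highest values were 353 for Gh and 166 for Prl, both in fasted RiboTag ZT14 replicate 4. Prl was 0 in all 33 sorted, 25 leptin-series and 5 ZT5 libraries. In those 2 libraries Ghr was 3372 and 5492 and Prlr 56.0 and 67.8, within the range of the other 3 fasted RiboTag ZT2 libraries for Ghr (311 to 4588) in the first and above it in the second, and below it for Prlr (127 to 331).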
